A study of Mus musculus with 4 samples.

Results

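A set of 7 genes used as markers of bile duct cells and of liver progenitor cells (Sox9, Sox4, Epcam, Spp1, Prom1, Cd24a and Cftr) was followed in mRNA-seq libraries of mouse liver. They were taken by gene name from the deposited expression table, which lists 13903 genes, and all 7 were found. All mice were OGT-floxed, of the C57BL/6J background, and had been kept on a CDE diet (choline-deficient and supplemented with ethionine), which injures hepatocytes and expands duct-like cells. OGT, O-GlcNAc transferase, is the enzyme that attaches the sugar O-GlcNAc to proteins. OGT-KO was the label of mice given AAV8-TBG-CRE, a virus whose TBG promoter drives Cre in hepatocytes, and control that of mice given AAV8-TBG-eGFP, so nonhepatocyte liver cells were not the target of the deletion in either group. Livers were collected with no recovery after the diet or after 7 days of recovery. The age and sex of the mice and the length of the diet are not given in the sources used here.

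The 4 conditions were OGT-KO with no recovery, control with no recovery, OGT-KO after 7 days and control after 7 days. Each condition was 1 library, for which RNA of 3 mice was pooled equally. No condition therefore had a replicate, no test of a condition was made, and the pool hides how far the 3 mice differed. Intervals beside the values are exact 95% Clopper-Pearson intervals and cover the counting error of these libraries only.

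Bile ducts are lined by cholangiocytes, epithelial cells that share a fetal precursor with hepatocytes. In chronic injury, duct-like cells spread from the portal tracts in the ductular reaction, and hepatocytes themselves can take on duct genes. The 7 genes mark these cells at several levels: Sox9 and Sox4 encode transcription factors of duct development, Epcam, Prom1 and Cd24a encode cell surface proteins, Spp1 encodes the secreted protein osteopontin, and Cftr encodes the chloride channel of the duct lumen.

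The libraries held 19972699 to 22866431 reads on listed genes. One read was then worth 0.0437 to 0.0501 CPM (reads of a gene per 1000000 reads on listed genes), and the smallest level taken as shown, 3 reads, was 0.131 to 0.150 CPM. The 100 most abundant genes took 34.1% and 34.3% of the reads in the OGT-KO-labelled libraries, against 42.8% and 45.0% in control. Ogt itself stood at 55.3 CPM in the OGT-KO-labelled library with no recovery and 64.7 CPM in its control, and at 77.7 CPM in the OGT-KO-labelled library after 7 days and 55.7 CPM in its control. The difference in log2(CPM + 1) was -0.22 at the first time and 0.47 at the second, so in the deposited CPM Ogt went against the label after 7 days, whereas scaling by the median of ratios turned the second difference to -0.20. These are reads over the whole gene, deleted and retained exons together, in tissue whose nonhepatocyte cells were not targeted. For this reason the libraries are called by their labels throughout.

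All 7 markers were higher in the OGT-KO-labelled library than in its control, both with no recovery and after 7 days. Spp1 took the most reads of the 7 in each library, and Cftr the fewest. The 7 genes together summed to 1309 CPM in the OGT-KO-labelled library with no recovery and 57.8 CPM in its control, and to 1693 CPM and 76.0 CPM after 7 days. Spp1 made up 68.5% to 74.6% of that sum. Without it, the other 6 genes came to 333 CPM against 16.8 CPM in control at the first time and to 449 CPM against 23.9 CPM at the second. In whole liver, fewer cells of a type and less RNA per cell cannot be told apart.

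**Figure D1:**
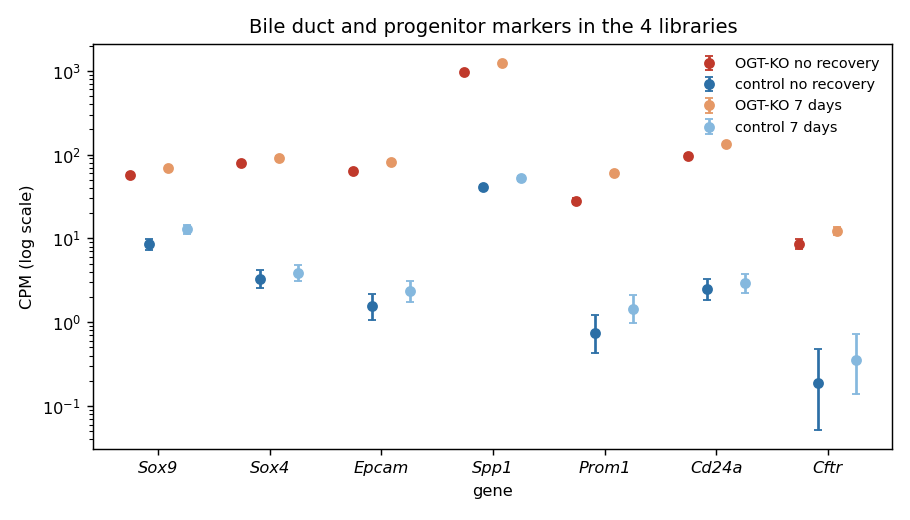
Level of each marker in CPM (log axis) in the 4 libraries, 1 point per library, with exact 95% counting intervals as bars, which are shorter than the point where not visible. For every gene both OGT-KO-labelled libraries lie above both control libraries, from Sox9 (56.7 and 68.3 against 8.56 and 12.9 CPM) to Cftr (8.66 and 12.3 against 0.188 and 0.350 CPM).

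Sox9, a transcription factor that marks the first duct cells of the fetal liver and the adult duct lining, was measured at 56.7 CPM (1296 reads) in the OGT-KO-labelled library with no recovery, 8.56 CPM (182 reads) in its control, 68.3 CPM (1541 reads) in the OGT-KO-labelled library after 7 days and 12.9 CPM (258 reads) in its control. Both OGT-KO values lay above both control values. The ratio of OGT-KO to control was 6.62 (5.66 to 7.77) at the first time and 5.29 (4.63 to 6.05) at the second. Of the 7 genes it had the smallest ratio at either time.

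Sox4, a factor of the same family that acts with Sox9 in duct formation, stood at 78.7 CPM (1800 reads) and 3.29 CPM (70 reads) in the OGT-KO-labelled library and its control with no recovery, and at 91.9 CPM (2074 reads) and 3.91 CPM (78 reads) after 7 days. Both control libraries were thus far below both OGT-KO-labelled ones. The ratios were 23.9 (18.8 to 30.8) and 23.5 (18.8 to 29.9).

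Among the surface proteins, Epcam, an adhesion molecule of duct and progenitor cells that mature hepatocytes largely lack, was at 64.2 CPM (1469 reads) against 1.55 CPM (33 reads) with no recovery and at 82.6 CPM (1865 reads) against 2.35 CPM (47 reads) after 7 days. The ratios were 41.4 (29.3 to 60.3) and 35.1 (26.3 to 48.0). Cd24a, a small glycoprotein anchored in the membrane by lipid, was likewise low in control and high in the OGT-KO-labelled libraries. It stood at 96.6 CPM (2209 reads) against 2.49 CPM (53 reads), and at 133 CPM (2996 reads) against 2.95 CPM (59 reads). Its ratios were 38.7 (29.5 to 51.9) and 44.9 (34.7 to 59.2). Prom1 encodes prominin-1 (CD133), a protein of membrane protrusions used to sort progenitor cells. It was at 27.8 CPM (636 reads) against 0.753 CPM (16 reads) with no recovery, and at 60.7 CPM (1370 reads) against 1.45 CPM (29 reads) after 7 days, with ratios of 37.0 (22.6 to 65.0) and 41.8 (29.0 to 62.7). The counting intervals of the 3 surface genes overlap one another at each time.

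Spp1, which encodes osteopontin, an extracellular matrix protein that macrophages and stellate cells can also secrete, reached 977 CPM (22334 reads) in the OGT-KO-labelled library with no recovery, 41.0 CPM (871 reads) in its control, 1245 CPM (28087 reads) in the OGT-KO-labelled library after 7 days and 52.1 CPM (1040 reads) in its control. With the most reads of the 7 genes, it had the narrowest ratio intervals, 23.8 (22.3 to 25.5) and 23.9 (22.5 to 25.5). Cftr lay at the other end of the range. It was at 8.66 CPM (198 reads) against 0.188 CPM (4 reads) with no recovery, and at 12.3 CPM (278 reads) against 0.350 CPM (7 reads) after 7 days. The ratios were 46.0 (17.7 to 171) and 35.1 (16.8 to 88.2), so the few control reads leave the size of the Cftr difference poorly set. Cftr also passed the filter on low values, an average of 1 CPM or more across all libraries, only through the OGT-KO-labelled libraries. The other 6 genes had a mean of at least 1 CPM in the control libraries as well.

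The differences were set beside those of all 12989 genes averaging at least 1 CPM, on the scale of log2(CPM + 1), where a difference of at least 1 is called 2-fold. This scale understates the change of low genes such as Cftr. With no recovery, 7 of 7 markers were at least 2-fold higher in the OGT-KO-labelled library, where 4352 of all genes (33.5%) were, and none was lower, where 597 (4.60%) were. Their median difference was 4.21 (2.59 to 4.80), and the median of all genes was 0.64. After 7 days, 7 of 7 were again higher, beside 4241 of all genes (32.7%), and none was lower, beside 455 (3.50%). The median was then 4.55 (2.32 to 5.08), beside 0.61 over all genes. About 1 in 3 of all genes were called higher at each time, so the calls by themselves set the markers little apart and the sizes carry more.

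Since most genes shifted upward in CPM, the marker differences were also taken relative to the median gene. That left a median of 3.57 (1.95 to 4.16) at the first time and 3.95 (1.71 to 4.47) at the second. With another scaling, median-ratio scaling, all genes had medians of -0.02 and -0.03. The split of 2-fold calls moved from 87.9% higher to 58.7% higher with no recovery and from 90.3% to 68.1% after 7 days. So scaled, 2295 of the 12989 genes were at least 2-fold higher and 1615 lower with no recovery. After 7 days 2652 were higher and 1240 lower. List counts given below under this scaling are to be read beside these counts. The markers kept their direction, with medians of 3.57 (1.91 to 4.18) and 3.87 (1.66 to 4.48).

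By gene, Cd24a had the highest difference at both times, 4.80 and 5.08, and 0.200% and 0.162% of all genes exceeded it. Epcam followed with no recovery, at 4.68 (0.223% of genes higher), and had 4.64 (0.316%) after 7 days. Spp1 had 4.54 (0.308%) and 4.55 (0.354%), Sox4 4.21 (0.462%) and 4.24 (0.585%), and Prom1 4.04 (0.585%) and 4.65 (0.300%). These 5 genes therefore lay in the upper 1% of genes at both times. Cftr, at 3.02 (2.52%) and 3.30 (2.59%), and Sox9, at 2.59 (4.92%) and 2.32 (9.28%), lay lower in that order. The order among the markers depends on the added 1 CPM. With 0.1 CPM added, Epcam led with no recovery, at 5.28 beside 5.22 for Cd24a. With 10 CPM added, Spp1 led at both times, at 4.27 and 4.34. As a plain ratio Cftr was highest with no recovery, at 46.0 (17.7 to 171).

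**Figure D2:**
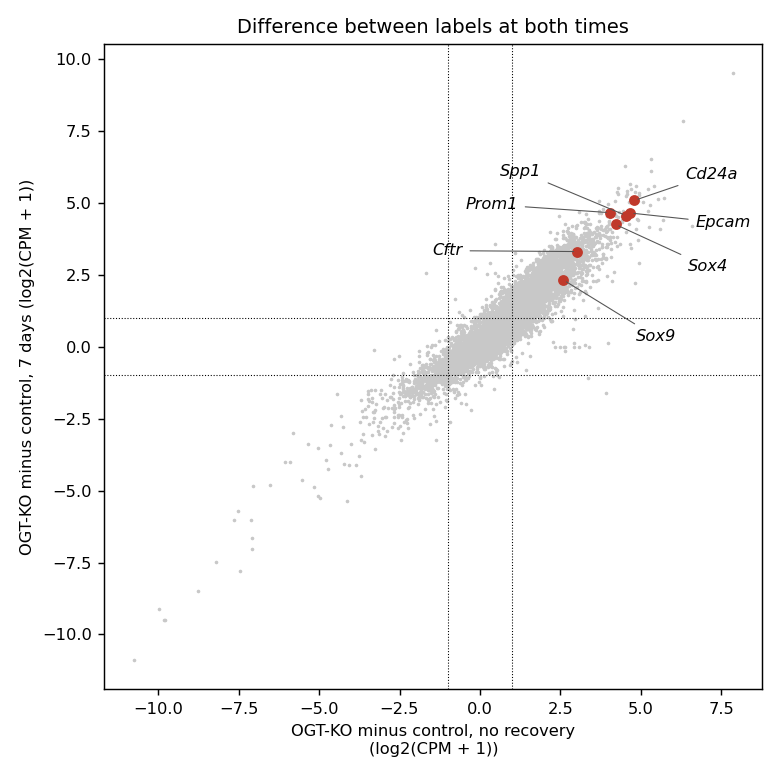
Difference in log2(CPM + 1) between the OGT-KO-labelled libraries and control with no recovery (horizontal) and after 7 days (vertical), for 12989 genes (grey) and the 7 markers (red), with dotted lines at a 2-fold difference. The 7 markers lie in the upper right, where both differences are above 1, with Sox9 (2.59 and 2.32) nearest to the bulk of genes and Cd24a (4.80 and 5.08) farthest out.

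The markers did not share 1 common ratio. Within each library the reads of every marker were divided by those of Epcam, a measure that does not depend on library scaling. Sox9 had 0.882 reads per Epcam read in the OGT-KO-labelled library with no recovery and 5.52 in its control, a ratio of 0.160 (0.106 to 0.235). After 7 days the values were 0.826 and 5.49, a ratio of 0.151 (0.107 to 0.208). Relative to Epcam, then, Sox9 was lower in the OGT-KO-labelled libraries, beyond counting error. The same held with smaller differences for Sox4, with ratios of 0.578 (0.368 to 0.892) and 0.670 (0.454 to 0.980), and for Spp1, with 0.576 (0.392 to 0.819) and 0.681 (0.495 to 0.916). For Prom1, Cd24a and Cftr the interval included 1 at both times, so no difference from Epcam was detectable at this depth. A like value for Cftr ran from 0.389 to 4.37 with no recovery.

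Levels of different genes were compared per kilobase of exon, with exon lengths from GENCODE M21 (GRCm38). In the OGT-KO-labelled library with no recovery, Spp1 led at 593 CPM per kb, followed by Cd24a at 37.4, Epcam at 29.3, Sox4 at 16.4, Sox9 at 13.7, Prom1 at 3.88 and Cftr at 1.12 CPM per kb. The order was the same in the OGT-KO-labelled library after 7 days, from 755 CPM per kb for Spp1 to 1.59 for Cftr. In control, Sox9 moved up to the second place, at 2.07 CPM per kb with no recovery and 3.12 after 7 days. It was followed with no recovery by Cd24a at 0.966, Epcam at 0.707 and Sox4 at 0.687 CPM per kb, neighbours whose counting intervals overlap, and then by Prom1 at 0.105 and Cftr at 0.0242. Spp1 led there too, at 24.9 and 31.6 CPM per kb.

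The genes lie on 6 chromosomes of GRCm38, and the submitters' processing notes name GRCm39, so positions are given only to place the genes. All are annotated as protein coding. Sox9 (chr11:112782224-112787760, plus strand) and Sox4 (chr13:28948919-28953713, minus strand) have 1 annotated transcript each. Epcam is at chr17:87635979-87651129 (plus strand), Cd24a at chr10:43578284-43584265 (plus strand) and Cftr at chr6:18170687-18322768 (plus strand). Spp1 (chr5:104435118-104441050, plus strand) and Prom1 (chr5:43993620-44102032, minus strand) share a chromosome but lie far apart on it, and Prom1 has 19 annotated transcripts. Gene totals do not tell these transcripts apart.

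Promoter sequence is shown for the members in which a searched motif was found. RefSeq windows (GRCm38.p6) of the 250 bases before the transcription start were read for 5 of the 7 genes, Sox4, Epcam, Spp1, Prom1 and Cftr. Sox9 and Cd24a were not matched. Spp1 and Prom1 had 2 windows each, of which only the first was read. Short motifs, 4 in all, were searched on both strands. TEAD factors of the Hippo pathway were given the letters GGAATG, and RBPJ of the Notch pathway was given GTGGGAA. SOX factors had the letters AACAAT, and the TATA box was searched as TATAAA. The windows of Sox4, chr13:28953700-28953949 on the minus strand, and Spp1, chr5:104434861-104435110 on the plus strand, read as follows from 5′ to 3′, with the motif matches in capitals.
Sox4: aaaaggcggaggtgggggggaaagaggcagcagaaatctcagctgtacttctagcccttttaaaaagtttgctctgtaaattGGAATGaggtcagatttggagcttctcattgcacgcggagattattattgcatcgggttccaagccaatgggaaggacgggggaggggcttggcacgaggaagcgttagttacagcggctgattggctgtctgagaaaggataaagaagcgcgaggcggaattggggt
Spp1: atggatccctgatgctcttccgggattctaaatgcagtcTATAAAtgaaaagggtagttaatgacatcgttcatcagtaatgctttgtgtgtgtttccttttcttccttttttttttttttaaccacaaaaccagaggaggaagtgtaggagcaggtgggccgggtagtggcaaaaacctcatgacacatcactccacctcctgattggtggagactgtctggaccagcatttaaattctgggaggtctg

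In Sox4 the match was GGAATG, 168 to 163 bases before the start. In Spp1 it was TATAAA, 211 to 206 bases before the start. Of 32851 windows of this length, 12.6% hold GGAATG, 12.4% TATAAA, 9.42% AACAAT and 5.42% GTGGGAA, so single matches of this kind are common. The windows of Epcam, Prom1 and Cftr hold none of the 4 motifs in these letters. Base composition also varied among them: G and C made up 43.6% of the Spp1 window, 50.8% of Sox4, 56.4% of Epcam, 59.2% of Prom1 and 76.4% of Cftr, beside a median of 52.4% over all windows. These matches describe the sequence and were not related to any measured binding.

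Recovery was compared within each label next. These comparisons use the same 4 libraries as those between labels. In control, all 7 markers were above their value with no recovery, but none by 2-fold. The median difference was 0.34 (0.18 to 0.54), beside -0.05 over all genes. This was not shared by the 18 further duct epithelium genes listed below. In control 9 of them were above 0, with a median of 0.03. Of all genes, 31 (0.239%) were at least 2-fold higher after 7 days and 133 (1.02%) lower. The counting interval of the ratio lay above 1 for Sox9, at 1.51 (1.24 to 1.83), Spp1, at 1.27 (1.16 to 1.39), and Prom1, at 1.93 (1.01 to 3.80). For the other 4 genes the interval included 1, as with Sox4 at 1.19 (0.848 to 1.66) and Epcam at 1.52 (0.951 to 2.44).

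In the OGT-KO-labelled libraries, all 7 markers were also higher after 7 days than with no recovery, by a median of 0.36 (0.22 to 1.10) beside -0.02 over all genes. Of the 18 further duct epithelium genes, 15 were above 0 here, with a median of 0.38. Of the markers only Prom1 was called 2-fold higher, where 170 of all genes (1.31%) were, and no marker was lower, where 92 (0.708%) were. Prom1 went from 27.8 to 60.7 CPM, a ratio of 2.18 (1.99 to 2.40). With more reads in these libraries, the interval lay above 1 for all 7, from Sox4 at 1.17 (1.10 to 1.24) and Sox9 at 1.20 (1.12 to 1.30) through Spp1 at 1.27 (1.25 to 1.30), Epcam at 1.29 (1.20 to 1.38) and Cd24a at 1.37 (1.30 to 1.45) to Cftr at 1.42 (1.18 to 1.72). How far such differences lie within the variation between mice cannot be told from 1 pool per condition.

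**Figure D3:**
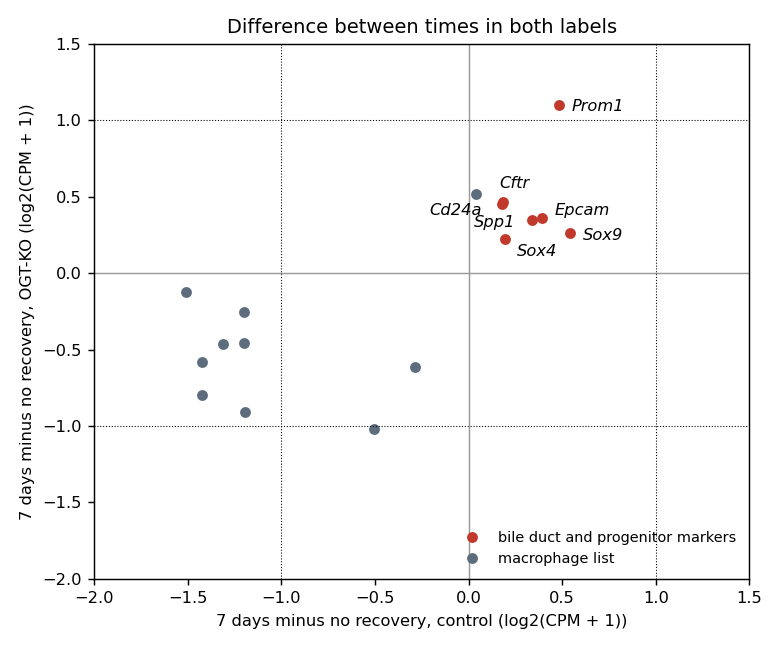
Difference in log2(CPM + 1) between 7 days and no recovery in control (horizontal) and in the OGT-KO-labelled libraries (vertical), for the 7 markers (red) and the 10 genes of the macrophage list (grey), with dotted lines at a 2-fold difference. All 7 markers lie above 0 on both axes and Prom1 alone passes 1 on the vertical axis, while 9 of the 10 macrophage genes lie below 0 on both.

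Whether the ratio of OGT-KO to control differed between the times was asked of the reads of the 4 libraries. The ratio after 7 days over that with no recovery was 0.799 (0.647 to 0.983) for Sox9, the one marker of 7 whose interval did not include 1. The upper end of this interval lies close to 1. It depends on the library scaling and was taken with the deposited one only, so little rests on it. For Spp1 the ratio was 1.003 (0.914 to 1.10), the most precise of the 7. Prom1, with 1.13 (0.570 to 2.17), Cd24a, with 1.16 (0.782 to 1.72), Epcam, with 0.849 (0.524 to 1.36), Sox4, with 0.984 (0.698 to 1.39), and Cftr, with 0.764 (0.162 to 3.05), were limited by their control reads. On the log2(CPM + 1) scale the differences ran from -0.28 for Sox9 to 0.61 for Prom1. They do not match the ratios where control values are low, since the added 1 CPM weighs on them. Cftr, at 0.28, went the other way from its ratio, as did Sox4, at 0.03, whose ratio lay close to 1.

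Other genes of the same cells and pathways were listed beside the markers. Of 18 further genes of duct epithelium, 13 were at least 2-fold higher and 1 lower in the OGT-KO-labelled library with no recovery (33.5% and 4.60% of all genes), with a median difference of 2.29. After 7 days 15 were higher and 1 lower (32.7% and 3.50%), with a median of 2.59. Under median-ratio scaling 2295 and 2652 of all genes were higher, and 12 and 13 of this list. Of the genes called higher, 7 at each time (Krt7, Sctr, Ggt1, Cldn4, Cldn7, Elf3 and Tspan8) averaged under 1 CPM in control and so passed the filter only through the libraries in which they were high. The same was true of 3 progenitor, 3 macrophage, 1 duct fate, 1 stellate cell and 1 proliferation gene in the lists that follow, all of them called higher at both times. The keratins Krt19 and Krt7, structural filaments of duct cells chosen here after their values were seen, differed by 3.47 and 3.58 with no recovery and by 3.96 and 3.82 after 7 days. The most abundant genes of the list differed less: the water channel Aqp1 by 1.39 and 1.69, Atp1b1, a sodium pump subunit, by 0.91 and 1.53, and the anion exchanger Slc4a2 by 0.08 and 0.37. Median-ratio scaling put Slc4a2 at -0.63 and -0.30. The gene on the other side was Slc10a2, the apical bile acid transporter, also singled out after its values were seen. It stood at 3.94 and 8.64 CPM in the OGT-KO-labelled libraries and at 41.5 and 29.5 CPM in control, a difference of -3.11 with no recovery and -1.66 after 7 days.

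Of 12 genes of progenitor and fetal liver cells, 11 passed the filter, and 10 of these were higher and none lower at each time, with medians of 2.97 and 3.94 (33.5% and 32.7% of all genes were higher). Median-ratio scaling gave 10 and 9 higher, beside 2295 and 2652 of all genes. It gave 1 lower with no recovery, beside 1615 of all genes, the stem cell receptor Lgr5 (-0.77 as deposited and -1.36 so scaled). Afp, alpha-fetoprotein, the main serum protein of the fetal liver, was at 632 CPM against 1.74 CPM with no recovery and at 2272 CPM against 2.15 CPM after 7 days. Gpc3, a fetal surface proteoglycan, differed by 4.62 and 4.58, and Tnfrsf12a, the receptor of the progenitor mitogen TWEAK, by 4.26 and 3.49. During recovery, Afp and the integrin Itga6 were the genes of this list at least 2-fold higher in the OGT-KO-labelled libraries, by 1.84 and 1.04 (1.31% of all genes). Cd44 was the one at least 2-fold lower in control, with -1.13 (1.02% of all genes). Of the 11 genes, 6 were above 0 in control, with a median of 0.03, and 9 in the OGT-KO-labelled libraries, with a median of 0.38.

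The 17 signals and transcription factors of duct fate were less uniform. In both comparisons of the labels 12 were higher and 1 lower. Of all genes, 33.5% and 32.7% were higher and 4.60% and 3.50% lower. The list had medians of 1.53 and 1.40. Under median-ratio scaling 9 and 8 of its genes were higher, beside 2295 and 2652 of all genes. The TGF-beta receptor Tgfbr2 differed by 1.79 and 1.88, and the Notch receptor Notch2 by 0.76 and 1.45. Yap1, the effector of the Hippo pathway, differed by 0.35 and 0.44, below the median of all genes at both times (-0.37 and -0.24 under median-ratio scaling), and the transcription factor Onecut2 by -0.01 and -0.03. The one lower gene was Onecut1, with -1.78 and -1.59. Its value, like that of Slc10a2, was seen before it was named.

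All 8 listed receptors of osteopontin were at least 2-fold higher at each time (33.5% and 32.7% of all genes). Their medians were 1.42 and 1.83, where the ligand gene Spp1 differed by 4.54 and 4.55. Under median-ratio scaling 2 receptors with no recovery and 5 after 7 days were at least 2-fold higher, with medians of 0.75 and 1.15. Fewer of all 12989 genes were higher under that scaling too, 2295 with no recovery and 2652 after 7 days. The integrin chains Itgb1, at 1.17 and 1.07, Itgb5, at 1.45 and 1.92, Itga5, at 1.27 and 1.74, and Itgav, at 1.61 and 2.02, were the most abundant. Cd44, which is also in the progenitor list, differed by 2.97 and 4.11.

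**Figure D4:**
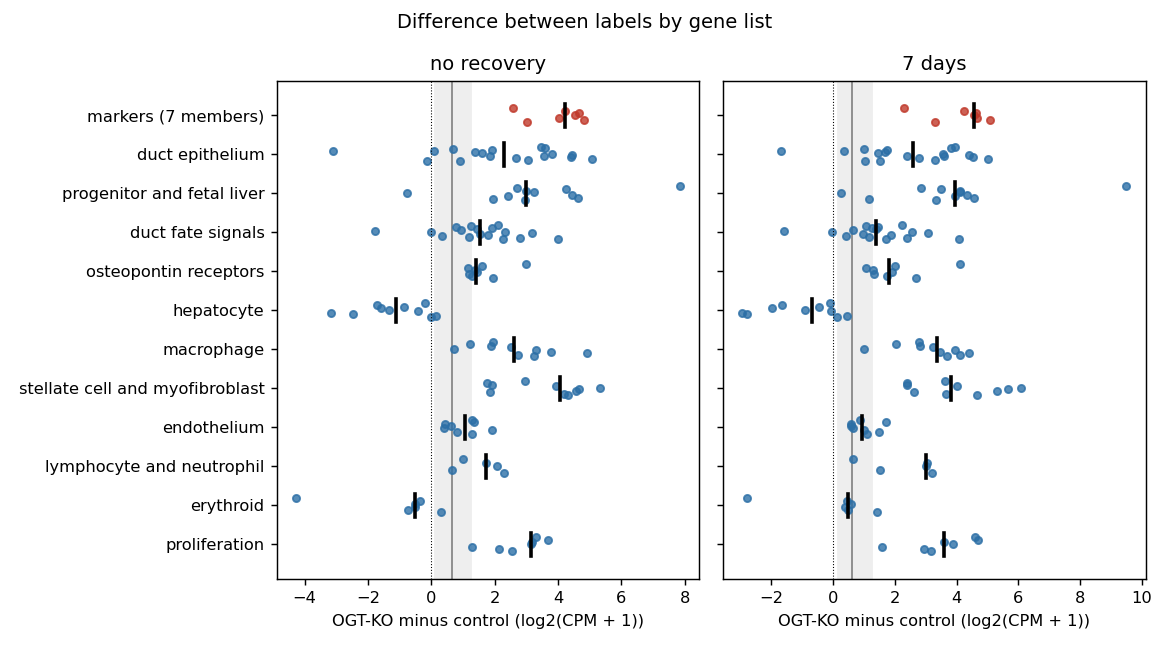
Difference in log2(CPM + 1) between the OGT-KO-labelled libraries and control with no recovery (left) and after 7 days (right), 1 point per gene past the filter, for the 7 markers (red) and the 11 gene lists (blue). Black bars are list medians, the grey line and band are the median and interquartile range of all genes, and the marker medians of 4.21 and 4.55 lie beside stellate cell medians of 4.07 and 3.83 and hepatocyte medians of -1.11 and -0.68.

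Markers of other cell types moved with the same labels. The whole liver was recognisable by its hepatocyte genes, with Alb at 41362 to 54435 CPM, and the summed level of the 10 hepatocyte genes was 55038 and 66221 CPM in the OGT-KO-labelled libraries against 81984 and 90288 CPM in control. With no recovery 5 of these 10 were at least 2-fold lower (Apoa1, Apoa2, Hnf4a, Cyp2e1 and Cyp2f2), and after 7 days 4 were (the same without Hnf4a), with Apoa2 at -1.70 and -1.63. Of all genes, 4.60% and 3.50% were lower. Alb differed by -0.21 and -0.08. Under median-ratio scaling 7 and 6 of the 10 were lower, and Alb differed by -0.93 and -0.77. More of all 12989 genes were lower under that scaling too, 1615 with no recovery and 1240 after 7 days.

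Marker genes of stellate cells and macrophages, cells that can also carry Spp1, Sox4 or Sox9, were higher in the OGT-KO-labelled libraries as well. All 10 stellate cell and myofibroblast genes were at least 2-fold higher at each time (33.5% and 32.7% of all genes). Their summed level was 3166 and 4041 CPM against 164 and 119 CPM in control. Their defining genes Pdgfrb and Lrat differed by 2.97 and 1.76 with no recovery and by 3.62 and 2.41 after 7 days. Of the 10 macrophage genes 9 were higher at each time, beside the same shares of all genes. The 10 summed to 1032 and 796 CPM against 218 and 81.4 CPM, with Adgre1 at 1.93 and 2.78 and Clec4f at 1.21 and 2.05. From no recovery to 7 days, 7 of the 10 macrophage genes were at least 2-fold lower in control (1.02% of all genes) and 1, Gpnmb, in the OGT-KO-labelled libraries (0.708%), where none was under median-ratio scaling. Ccr2, named after its values were seen, was the one macrophage gene above 0 in both labels, at 0.04 and 0.51.

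Sox4 and Cd24a can come from endothelium and blood cells. The 8 endothelial genes summed to 493 and 404 CPM in the OGT-KO-labelled libraries and to 269 and 186 CPM in control. With no recovery 4 were at least 2-fold higher (Pecam1, Cdh5, Lyve1 and Vwf), and after 7 days 3 were (Cdh5, Eng and Vwf). Of all genes, 33.5% and 32.7% were, so these counts set the list little apart. Its medians were 1.05 and 0.94, beside 0.64 and 0.61 over all genes. Of 11 lymphocyte and neutrophil genes, 9 were listed and 5 passed the filter. The defining genes were low throughout: Cd79a, which did not pass, was at 0.300 to 1.53 CPM and Cd3e at 0.350 to 2.23 CPM. The most abundant were not low in the OGT-KO-labelled libraries. Ptprc was at 33.8 and 31.7 CPM there against 6.16 and 2.55 CPM in control, and S100a9 at 6.95 and 10.7 CPM against 0.894 and 0.451 CPM. With no recovery Cd3e, S100a8, S100a9 and Ptprc were at least 2-fold higher (33.5% of all genes). After 7 days S100a8, S100a9, Cxcr2 and Ptprc were (32.7% of all genes). All genes called at either time but Ptprc averaged under 1 CPM in control and passed the filter only through the OGT-KO-labelled libraries. Of 8 erythroid genes, 6 were listed. Their sum was 141 and 204 CPM in the OGT-KO-labelled libraries against 378 and 286 CPM in control, and Alas2, which carried most of the control sum, differed by -4.27 and -2.79. The other 5 summed to 131 against 165 CPM with no recovery and to 180 against 115 CPM after 7 days. Tfrc, at 1.43, was at least 2-fold higher after 7 days, as were 32.7% of all genes. Under median-ratio scaling 5 erythroid genes were at least 2-fold lower with no recovery and 1 after 7 days, beside 1615 and 1240 of all genes. So scaled, 1 endothelial gene was higher at each time, beside 2295 and 2652 of all genes.

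All 7 proliferation genes were at least 2-fold higher in the OGT-KO-labelled libraries at each time (33.5% and 32.7% of all genes), with medians of 3.14 and 3.61. Under median-ratio scaling 6 were at each time, without Pcna, at 0.59 and 0.92, beside 2295 and 2652 of all genes. Mki67 was at 38.5 against 3.01 CPM with no recovery and at 109 against 3.55 CPM after 7 days. Mki67 and Ccnb1 were the ones at least 2-fold higher after 7 days than with no recovery in the OGT-KO-labelled libraries, by 1.47 and 1.12 (1.31% of all genes). What part any of these cell types or dividing cells had in the marker levels was not tested.

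The genes whose pattern over the 4 libraries was most like that of each marker were found by the Euclidean distance between centred log2(CPM + 1) values, among genes averaging at least 10 CPM. With 4 libraries in 2 well separated pairs, a small distance says only that the differences on this scale were alike. The ratios need not be, since the added 1 CPM flattens low control values. In control with no recovery and after 7 days, Cldn4 stood at 0.0470 and 0.300 CPM and Krt20 at 0 and 0.0501 CPM. Except Tubb6 and Spp1, the genes found averaged under 10 CPM in control. They passed this minimum only through the OGT-KO-labelled libraries. Epcam and Spp1 were among the nearest to each other, at 0.118, and Gpc3 was nearest to both, at 0.0684 and 0.0814. The claudin Cldn4, a tight junction protein of duct epithelium, was among the 3 nearest of Sox4 (0.212), Epcam (0.253) and Spp1 (0.139).

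For Cftr the nearest were Krt23 at 0.0573, Ano1, another epithelial chloride channel, at 0.0754, and Vsig10 at 0.136. Prom1 lay nearest to Mmp7, a matrix protease of duct epithelium, at 0.104, and then to Bicc1 at 0.321 and Ehf at 0.355. The nearest to Cd24a were Krt20 at 0.187, Emp1 at 0.225 and Tspan8 at 0.239. Sox4 was nearest to Hr, at 0.157, and the epithelial protease gene St14, at 0.164. The neighbours of Sox9 were Tubb6 at 0.165, Lamc3 at 0.186 and Cystm1 at 0.196.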

How the data were processed

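Liver tissue RNA (TRIzol, Tecan Universal Plus mRNA-seq) was sequenced in 4 libraries. The authors deposited 1 table of CPM for 13903 genes. The submitters' processing notes name STAR, DESeq2 and GRCm39, with no version or role, and the counting and strand settings are not given in the sources used here. The table is named for DESeq2 normalization, yet each deposited column sums to 1000000 CPM, and 100% of values are whole multiples of 1 read (tolerance 0.01 read), so whole reads were recovered. CPM is relative: a fall of abundant transcripts raises the others.

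Members were matched by gene name, and samples were grouped by genotype and time as labelled. Differences are of log2(CPM + 1), among 12989 genes averaging 1 CPM or more across all libraries, and called means at least 2-fold. Ratio intervals came from SciPy 1.17.1 (exact 95% Clopper-Pearson), with pandas 2.3.3. With 1 library per condition no test of conditions was made. A binomial test of reads, which compares libraries and not conditions, was an alternative, beside other pseudocounts, filters, thresholds and scalings (median-ratio, upper-quartile, and TMM from edgeR 4.0.16). Scripts were tested on simulated data.

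Named genes were the 7 members, Ogt, the 4 most abundant genes of each of 11 lists, the 2 defining markers of each cell type list, and the 3 genes nearest to each member. Genes named beside a small count, and those said to be so, were chosen after their values were seen. The members and lists were chosen with earlier results of these data known. Of the 118 listed genes 114 were in the table. A gene of these lists and a promoter motif are not reported here.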

Additional observations from a re-analysis of the deposited data

Results flagged for a closer look

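A gene is given here where its difference had opposite signs in the 2 times or the 2 labels, each with a counting interval of the ratio that did not include 1. Of 87 genes checked, which are the markers, Ogt, the genes nearest to each marker and the list genes named, 18 met this and none was one of the 7 markers. How many of all genes meet the rule was not counted, so these counts set neither the markers nor the lists apart. The difference itself was not tested, since each condition is 1 library. Values are in log2(CPM + 1).

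Ogt differed between the labels by -0.22 with no recovery and 0.47 after 7 days, 0.70 apart, and between the times by -0.21 in control and 0.48 in the OGT-KO-labelled libraries. The globin genes also turned between the times: Hba-a1 differed between the labels by -0.35 and 0.46 (0.81 apart), and Hbb-bs by -0.52 and 0.39 (0.91 apart). Under median-ratio scaling the second differences were -0.20 for Ogt, -0.21 for Hba-a1 and -0.29 for Hbb-bs, so none of them turned there.

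The other genes turned between the labels in their difference from no recovery to 7 days, given for control and then for the OGT-KO-labelled libraries. In the duct, progenitor, fate and receptor lists these were Atp1b1, with -0.15 and 0.46 (0.62 apart), Notch2, with -0.31 and 0.38 (0.69 apart), Itgb5, with -0.36 and 0.10 (0.46 apart), Itga6, with -0.49 and 1.04 (1.53 apart), and Slc10a2, with -0.48 and 0.97 (1.44 apart). Among stellate cell genes they were Col1a1, with -0.33 and 0.45 (0.78 apart), Col1a2, with -0.61 and 0.38 (0.99 apart), Col3a1, with -0.39 and 0.35 (0.74 apart), and Reln, with -0.50 and 0.27 (0.77 apart). Hepatocyte genes were Ttr, with -0.12 and 0.30 (0.43 apart), and Apoa1, with 0.32 and -0.04 (-0.36 apart), though Apoa1 did not turn under median-ratio scaling, at 0.36 and 0.03. The rest were Eng, with -0.55 and 0.13 (0.68 apart), S100a8, with -0.51 and 0.80 (1.30 apart), Alas2, with -0.32 and 1.16 (1.48 apart), Tfrc, with -0.79 and 0.34 (1.13 apart), and the globins Hba-a1, with -0.41 and 0.40, and Hbb-bs, with -0.37 and 0.53.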

How the results depend on the processing

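Counts and shares were taken again under pseudocounts of 0.1 and 10, other filters, a 4-fold threshold, an added binomial test of reads and 3 other scalings. Of 60 such values, 56 stayed within 1.5 times their value as deposited. Those with the binomial test could not move, since every 2-fold call passed it. Under the other pseudocounts and scalings none of 140 marker differences turned in direction, though 52 moved by more than their counting interval. With a pseudocount of 10 the call of Cftr with no recovery was lost (0.87), which left 6 of 7. The single call during recovery in the OGT-KO-labelled libraries, Prom1, was lost with a pseudocount of 10 (0 calls) and at 4-fold (0 calls). The share of all genes lower there, 0.708%, was 0.435% with a mean of at least 10 CPM and 0.456% with a mean of at least 1 CPM in control, an alternative chosen after seeing the data. The difference of Ogt after 7 days, 0.47 as deposited, was -0.20 under median-ratio scaling, -0.0053 under upper-quartile scaling and -0.20 under TMM, so whether Ogt went against the label there depends on the scaling. The share of label calls that were higher was 70.8% and 77.4% under upper-quartile scaling and 61.8% and 68.5% under TMM. The binomial test of reads had an adjusted p under 0.05 for 11450, 11276, 4116 and 6365 genes in the comparisons of the labels with no recovery and after 7 days and of the times in control and OGT-KO. It had it for 7, 7, 2 and 7 of the 7 markers. No library could be left out, with 1 per condition, and depth limits mainly Cftr and Prom1 in control. No paired analysis was possible, since each condition was 1 pooled library.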
